A study of Mus musculus with 6 samples.

Results

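LINE L1 elements are retrotransposons, stretches of DNA that were copied into new places of the genome through an RNA intermediate. Chromatin accessibility at their copies was examined in sorted mouse leukaemia cells after one allele of Usp18 was targeted for deletion. The peaks described are those whose detailed annotation in the deposited peak table names a LINE L1 repeat and whose position is an intron or intergenic. There were 3699 such peaks among 175929 in the table and among 140013 intron and intergenic peaks. They carried 120 repeat names, and 1694 lay in introns and 2005 between genes.

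A full-length L1 carries a promoter for RNA polymerase II and encodes an RNA-binding protein and an endonuclease with reverse transcriptase, with which its RNA is copied back into DNA. Most copies are truncated at the 5′ end and cannot move, but their sequence can still be bound by transcription factors. Blood cells silence L1 through DNA methylation, histone H3 lysine methylation and the HUSH complex, and L1 nucleic acids can set off interferon signalling. USP18 removes ISG15 from proteins and restrains signalling from the type I interferon receptor.

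The leukaemia was driven by AML1/ETO 9a (AE9a), a truncated fusion protein, in transplanted Usp18+/f cells. These cells carry a tamoxifen-activated Cre recombinase with a broadly active promoter. The study's methods name wild-type mice as recipients of its non-competitive transplants, so the Cre was carried by the transplanted cells. Recipients of these cells received either oil or tamoxifen once they were sick. Leukaemia cells (GFP+, Lin-, c-Kit+) were sorted from the spleen 3 days after the first injection and profiled by ATAC-seq, in which a transposase cuts open chromatin. The oil group (Usp18+/f) had 3 libraries, numbered 1, 2 and 4, and the tamoxifen group (labelled Usp18+/D) had 3, numbered 1, 3 and 4. All libraries share the Cre and the floxed allele. No library of Cre-free cells given tamoxifen was analysed, so the drug and the loss of the allele cannot be told apart.

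Libraries held 57.4 to 74.7 M tags (M, 1e6), a tag being an aligned read as HOMER counts it, with 17.5 to 21.1 M of them in peaks and 201416 to 254322 in L1 peaks. Tamoxifen replicate 4 stood apart. Over the 3699 L1 peaks, its log2 normalised tags correlated with those of the oil libraries at r of 0.906 to 0.917 and with the other tamoxifen libraries at 0.872 and 0.874, whereas oil libraries correlated among themselves at 0.943 to 0.947. Those points share peaks and depth. The counts of calls are therefore also given without that library, as are values that it moved across the threshold. The peak nearest the Usp18 start site held 438 ± 21.8 (SD, n = 3) normalised tags in the oil libraries and 449 ± 17.0 (SD, n = 3) in the tamoxifen libraries, where normalised means divided by the DESeq2 size factor of the library. Whether that peak lies in the floxed part is not given in the sources used here, so it checks nothing. All 8 myeloid progenitor markers had a peak within 3000 bp of their start site (Kit and Runx1 above 600 in every library), as did 6 of 6 erythroid markers, 3 of 6 T-cell, 2 of 5 B-cell and 2 of 6 mature myeloid markers. Of the progenitor markers, Cd34, a stem and progenitor cell surface protein gene, spanned 73.9 to 117 normalised tags in oil and 212 to 333 in tamoxifen libraries (log2 fold change 1.50, adjusted p = 8.32e-12, DESeq2), and Gfi1, a repressor gene, spanned 94.97 to 111 and 137 to 175 (0.62, adjusted p = 0.0367, DESeq2), so both rose. The T-cell, B-cell and mature myeloid lists spanned 10.3 to 106 normalised tags after oil and 11.1 to 120 after tamoxifen. The part of these markers in the results was not tested.

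Names were grouped into 3 classes by their form. The L1Md class, the youngest mouse L1 families, held 86 peaks under 5 names. The rodent class (L1_Mus, L1_Mur, L1_Rod, L1VL and Lx names) held 2149 peaks under 31 names. All other names, mostly the L1M families shared with other mammals, formed an older class with 1464 peaks under 84 names. Lx8 alone gave 573 peaks, followed by Lx9 with 244, Lx7 with 181, Lx5c with 144 and Lx8b with 126. The 12 names with the most peaks together held 1814 peaks, or 49.04% of all members, and 14 names had a single peak.

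Sequence was read from GRCm38 for 3697 of the 3699 members, the other two lying on an unplaced scaffold. L1 copies resemble each other, so the share of 50-base words that occur once in the genome was computed for each peak. Less than 90% of these words were unique in 76 of 86 L1Md peaks (88.4%), in 11.2% of rodent peaks and in 2.80% of older peaks, against 5.06% of all intron and intergenic peaks. Tags in L1Md peaks may therefore come from other copies, while most values of the rodent and older classes belong to 1 place.

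Identical stretches were shared by peaks in different places. For each of the 36 names with at least 30 peaks, the 20-base stretch present in most of its peaks was found, and in 7 names it recurred in 8 or more peaks. The stretches of 3 of these names are printed, all read from the reference, because they show what separate L1 peaks have in common. Capitals mark the AP-1 word TGANTCA.
L1Md_F2: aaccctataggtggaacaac
L1_Mus1: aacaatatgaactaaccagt
Lx4A: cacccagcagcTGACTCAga

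The L1Md_F2 stretch occurred in 31 of 66 L1Md_F2 peaks and in 17 L1_Mus1 peaks, and the L1_Mus1 stretch in 26 of 66 L1_Mus1 peaks and in 18 L1Md_F2 peaks, so peaks of both names covered the same stretch. Both stretches sit in 1 longer run. The majority base at each position over the 50 L1 peaks that hold the L1Md_F2 stretch gave 66 bases, with a mean agreement of 93.7%.
L1Md_F2 majority: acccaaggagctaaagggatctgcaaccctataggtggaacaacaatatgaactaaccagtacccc
That stretch had 46670 exact copies on the 21 assembled chromosomes, of which 61 (0.131%) lay inside a peak of any kind. The L1_Mus1 stretch had 31068 copies with 66 (0.212%) in a peak. Nearly all copies of these young sequences were thus in no peak of the table, and reads from identical copies cannot be told apart.

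Lx4A, a rodent family, showed a more common pattern. Its stretch, found in 14 of 76 Lx4A peaks, had 361 exact copies, 16 of which (4.43%) lay in a peak, at a median of 20.0 bp from the peak centre. Over the 15 L1 peaks that hold it, the majority sequence ran for 78 bases with a mean agreement of 87.7%.
Lx4A majority: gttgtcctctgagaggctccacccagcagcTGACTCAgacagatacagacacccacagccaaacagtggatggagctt
The AP-1 word, bound by Jun and Fos proteins, was present in 57.9% of all Lx4A peaks, against 9.55% of L1 peaks and 9.74% of all intron and intergenic peaks. A match to a word is a description of the letters and not of binding.

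The word for YY1 (AAGATGG), a zinc finger protein with sites in young L1 promoters, was found in 37.2% of L1Md peaks and 56.1% of L1_Mus1 peaks, compared with 8.30% of all L1 peaks and 6.53% of intron and intergenic peaks. Many of these matches recur with 1 shared sequence, as 27 of the 50 L1 peaks that hold the L1Md_F2 stretch had the YY1 word. Where the peaks lie within the L1 element was not examined, so they are not known to be promoters. The word for C/EBP factors (TTGCNNAA) was in 45.5% of L1_Mus1 peaks against 9.72% of intron and intergenic peaks. Over the classes, the C/EBP word was more frequent in L1Md (25.6%) than in older peaks (12.5%), and the words of 3 other families of blood factors were less frequent. The word AGATAA, bound by GATA factors of the erythroid and stem cell lineages, was in 33.9% of older and 10.5% of L1Md peaks. The word TGTGGT of RUNX proteins, the family of the DNA-binding part of AE9a, was in 30.3% of older and 14.0% of L1Md peaks. The ETS word, GGAAGT, was in 27.8% of older and 6.98% of L1Md peaks. Among all intron and intergenic peaks, of nearly the same median width (252 bp against 253 bp for L1), these shares were 21.4%, 26.2% and 23.2%. Words were searched on both strands, and matches of different words can overlap, as those of ETS and RUNX do in some peaks.

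**Figure D1:**
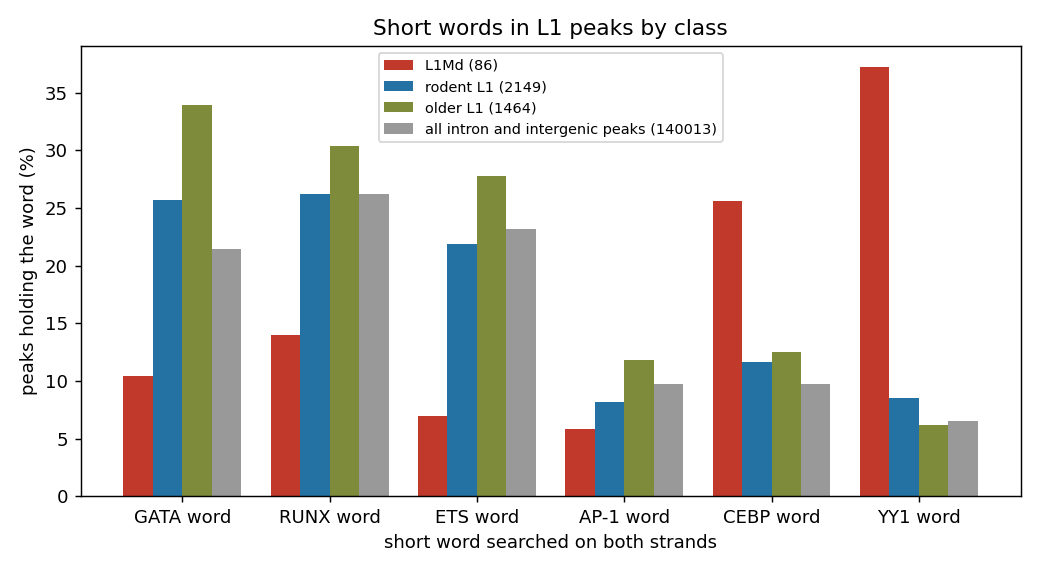
Share of peaks (%) that hold each of 6 short words on either strand, for the 3 L1 classes and for all intron and intergenic peaks, with the number of peaks in brackets. The YY1 word stands at 37.2% in L1Md peaks against 6.53% in all intron and intergenic peaks, and the GATA word at 33.9% in the older class.

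L1 peaks were weaker and farther from genes than peaks outside repeats. The median of the mean normalised tags was 38.9 over L1 peaks (31.2 for L1Md, 37.4 for rodent and 42.2 for older names) and 49.2 over the 100489 intron and intergenic peaks with no repeat. Other repeats were as weak, with medians of 37.3 for SINE and 38.8 for LTR peaks. The median distance to the nearest start site was 19227 bp for L1 peaks, 12945 bp for peaks with no repeat, 16063 bp for LTR and 11062 bp for SINE peaks. Both peak lists, oil and tamoxifen, contained 64.4% of the L1 peaks, the oil list alone 21.4% and the tamoxifen list alone 14.2%, compared with 71.4%, 17.4% and 11.2% of all peaks. Both lists held similar shares of the other repeats, at 64.6% of SINE, 64.4% of LTR and 64.2% of L2 peaks. The X chromosome held 6.98% of L1Md and 2.57% of all L1 peaks, against 1.72% of intron and intergenic peaks.

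The highest peaks of each class were described in every library. An older L1MA6 peak, chr11:62556325-62557159, lay 3112 bp past the 3′ end of Ubb, a polyubiquitin gene. It held 811, 879 and 975 normalised tags after oil and 662, 889 and 852 after tamoxifen. The groups overlapped (log2 fold change -0.15 ± 0.10 SE, adjusted p = 0.771, DESeq2). An older HAL1ME peak, chr8:10946148-10946440, with no gene end nearby, spanned 702 to 758 after oil and 722 to 780 after tamoxifen. Among rodent names, an Lx8 peak lay 5077 bp past the end of Hsp90aa1, a cytosolic chaperone gene (chr12:110685184-110685528). Its 3 oil values were 693, 636 and 819 and its tamoxifen values 371, 476 and 712, with tamoxifen replicate 4 inside the oil range. It stood at -0.46 ± 0.30 (SE; adjusted p = 0.735, DESeq2), and at -0.76 (adjusted p = 0.00415, DESeq2) without that library, inside the fold limit. The other high Lx8 peak, chr8:126495523-126495729, 20561 bp from the Tarbp1 start site, spanned 523 to 598 after oil and 492 to 542 after tamoxifen. The highest L1Md peak was an L1Md_A copy in intron 2 of Tex14, a gene of germ cell bridges (chr11:87472060-87472381, 68.1% unique words), with 506 to 528 after oil and 424 to 517 after tamoxifen. An L1Md_F2 copy in intron 10 of Cntnap5b (chr1:100180085-100180285) was almost level, at 251 ± 13.4 and 250 ± 8.95 (SD over 3 libraries). With all libraries, none of these 6 peaks passed the test.

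To determine which L1 copies changed after tamoxifen, DESeq2 was fitted to all 175929 peaks. Calls required more than a 2-fold difference and an adjusted p under 0.05 over all peaks. At this limit 35 L1 peaks rose and 6 fell, 41 in all, and the rest were not called. These are 1.11% of the L1 peaks, read against 0.654% of all peaks and 0.731% of intron and intergenic peaks. Other repeats had like or higher shares, at 1.12% of LTR, 1.21% of L2 and 1.45% of DNA transposon peaks, whereas SINE peaks had 0.275%. By direction, 0.946% of L1 peaks rose and 0.162% fell, against 0.588% and 0.0659% of all peaks. The median log2 fold change was 0.00 over L1 peaks and -0.00 over all peaks. An unadjusted p under 0.05 was found in 455 L1 peaks (12.3%), against 9.02% of all peaks. At any fold, 72 L1 peaks passed the adjusted p (63 higher and 9 lower, 1.95% against 1.39% of all peaks). All 3 tamoxifen values lay above all oil values in 14.5% of L1 peaks (11.9% of all peaks) and below them in 10.4% (10.0%).

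Calls were spread over the classes and lay mostly between genes. They comprised 1 of 86 L1Md peaks, 27 of 2149 rodent peaks and 13 of 1464 older peaks. Of the intergenic L1 peaks 32 (1.60%) were called, against 0.735% of all intergenic peaks, and of the intron L1 peaks 9 (0.531%), against 0.727% of all intron peaks. Called peaks carried 21 names, led by Lx9 with 9. They fell into 38 loci when peaks closer than 100000 bp were joined, and 35 consisted wholly of unique words. Without tamoxifen replicate 4, 103 L1 peaks were called (67 higher and 36 lower, with 1.54% of all peaks called), including 36 of the 41. Leaving out another library gave 21, 16 and 20 calls without oil replicates 1, 2 and 4, and 23 and 10 without tamoxifen replicates 1 and 3. The shares of all peaks called in those fits are not given, so these counts describe the L1 peaks alone. Tamoxifen replicate 3 held the highest value in 30 of the 35 peaks that rose, and tamoxifen replicate 4 the lowest in 25.

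**Figure D2:**
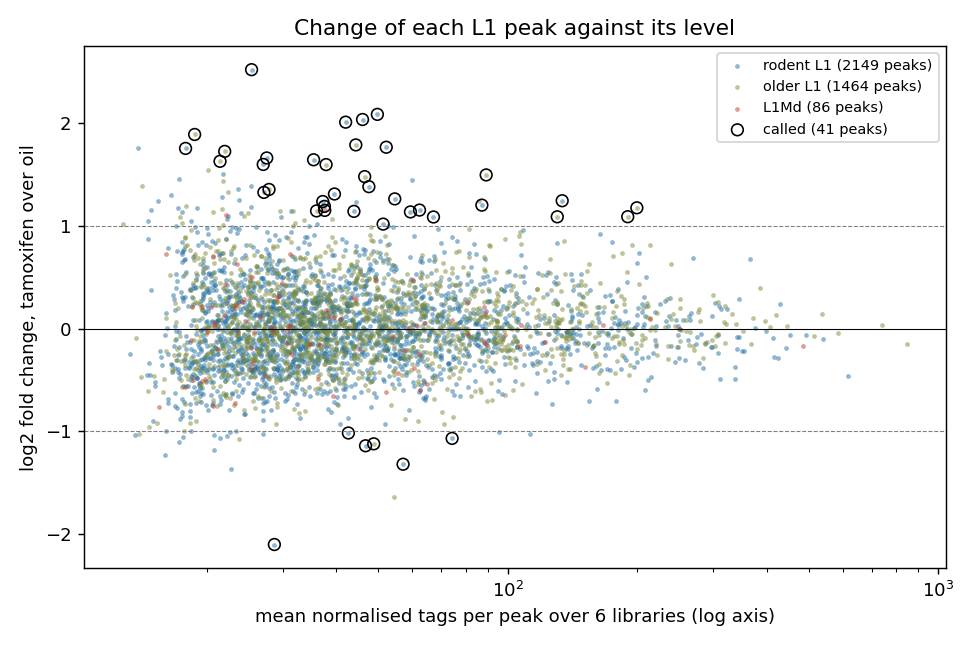
Log2 fold change of tamoxifen over oil for each of the 3699 L1 peaks against its mean normalised tags (log axis), coloured by class, with the 41 called peaks circled and dashed lines at a fold change of 2. Called peaks that rose lie below 200 mean tags, and the highest peaks sit near 0.

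The L1 peak with the smallest adjusted p was an L1MC4a copy 8909 bp past the end of Sema4f, a semaphorin gene (chr6:82902587-82902976). It held 133, 120 and 112 normalised tags after oil and 253, 262 and 259 after tamoxifen, and rose by 1.09 ± 0.15 (SE) on the log2 scale (adjusted p = 3.09e-10, DESeq2). The tamoxifen values were close to each other and well apart from oil. An L1M5 copy in intron 1 of Gm36738 lay 3652 bp from the start site of Rac2, a small GTPase of blood cells (chr15:78576235-78576636). Its values were 51.8, 43.9 and 44.3 after oil and 128, 115 and 151 after tamoxifen, a log2 rise of 1.50 ± 0.22 (SE; adjusted p = 1.92e-08, DESeq2). Here tamoxifen replicate 4 was the highest library. An L1M2 copy 7668 bp past the end of the protease gene Prss55 (chr14:64067538-64067770) held 125, 122 and 118 after oil and 278, 345 and 207 after tamoxifen. It rose by 1.18 ± 0.17 (SE; adjusted p = 2.77e-08, DESeq2), with no overlap.

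A HAL1 copy 59715 bp from the start site of 1700049L16Rik (chr10:72040271-72040539) held 78.9, 65.8 and 104 normalised tags after oil and 166, 178 and 188 after tamoxifen, a log2 rise of 1.09 ± 0.19 (SE; adjusted p = 4.74e-06, DESeq2). The other 2 of the 6 leading peaks were on the tamoxifen list alone and near the floor in oil. An Lx9 copy in intron 14 of Cfap20dc (chr14:8451186-8451411) went from 13.2, 20.5 and 16.6 to 61.9, 90.2 and 50.7, a rise of 2.01 ± 0.34 (SE; adjusted p = 4.55e-06, DESeq2). An L1MB3 copy in intron 5 of Plcg2, a phospholipase of immune receptor signalling (chr8:117562647-117562903), went from 17.1, 18.0 and 24.2 to 68.6, 81.9 and 55.9, a rise of 1.79 ± 0.32 (SE; adjusted p = 1.11e-05, DESeq2). Neither group overlapped the other at these peaks, and all 6 remained called without tamoxifen replicate 4.

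The sequences of these 2 gained intronic copies are printed from GRCm38 (plus strand) because both were on the tamoxifen list alone and consist wholly of unique words. Capitals mark matches to any of 9 searched words, the 6 above and those of HSF (GAANNTTC), E-box factors (CACGTG) and MEIS (TGACAG).
Lx9 in Cfap20dc: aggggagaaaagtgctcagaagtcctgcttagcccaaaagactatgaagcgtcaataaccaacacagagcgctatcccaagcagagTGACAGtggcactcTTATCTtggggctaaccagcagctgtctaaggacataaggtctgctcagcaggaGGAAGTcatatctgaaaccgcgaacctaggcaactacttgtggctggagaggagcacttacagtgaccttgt
L1MB3 in Plcg2: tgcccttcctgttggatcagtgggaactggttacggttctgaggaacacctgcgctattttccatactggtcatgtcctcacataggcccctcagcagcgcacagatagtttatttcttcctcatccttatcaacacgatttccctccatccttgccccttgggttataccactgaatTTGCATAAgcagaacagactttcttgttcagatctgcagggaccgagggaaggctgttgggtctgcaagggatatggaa
The Lx9 copy held a MEIS, a GATA and an ETS word, and the L1MB3 copy a C/EBP word. Over the 35 peaks that rose, 40% held a RUNX word, 40% a GATA word and 37.1% an ETS word, against 27.6%, 28.6% and 23.9% of all L1 peaks. For the AP-1, C/EBP and HSF words the shares were 14.3%, 14.3% and 8.57%, against 9.55%, 12.3% and 7.82%. For the E-box, MEIS and YY1 words they were 5.71%, 20% and 0%, against 4.25%, 21.4% and 8.30%. Some of the 35 peaks share a locus, as described below, and these shares were not tested.

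Loci with several called L1 peaks numbered 2, each with a copy of more than 1 name. Downstream of Rgs1, a brake on G protein signalling of lymphoid and myeloid cells, 2 Lx8b peaks and 1 Lx peak rose together within chr1:144238920-144242296, 6987 to 10040 bp from the start site. The stronger Lx8b peak held 17.1, 14.6 and 21.1 normalised tags after oil and 64.3, 115 and 43.8 after tamoxifen (log2 fold change 2.04 ± 0.37 SE, adjusted p = 1.70e-05, DESeq2). The Lx peak held 22.1, 9.75 and 25.5 after oil and 68.1, 126 and 48.0 after tamoxifen. In all 3 peaks the groups were apart, with tamoxifen replicate 3 highest, and all 3 remained called without tamoxifen replicate 4. These neighbours share a locus and are not independent of each other.

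At Gpr141, an orphan receptor gene, an Lx8 copy 30571 bp upstream of the start site rose from 23.7, 22.9 and 23.3 to 69.6, 123 and 49.8 (log2 fold change 1.77 ± 0.33 SE, adjusted p = 5.68e-05, DESeq2). An L1Md_F2 copy in a Gpr141 intron rose from 16.0, 25.8 and 29.1 to 51.2, 60.2 and 44.2 (1.15 ± 0.33 SE, adjusted p = 0.0381, DESeq2), and it was the single L1Md peak called. Only 45.8% of its 50-base words were unique, against 100% for the Lx8 copy, and it drops out when peaks under 90% are removed. Both are printed from the plus strand, chr13:19854707-19854949 and chr13:19788001-19788226, with the same capitals.
Lx8 at Gpr141: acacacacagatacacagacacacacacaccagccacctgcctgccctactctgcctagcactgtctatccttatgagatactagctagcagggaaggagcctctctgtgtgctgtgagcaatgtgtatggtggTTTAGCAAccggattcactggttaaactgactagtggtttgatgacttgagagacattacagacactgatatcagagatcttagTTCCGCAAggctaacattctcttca
L1Md_F2 in Gpr141: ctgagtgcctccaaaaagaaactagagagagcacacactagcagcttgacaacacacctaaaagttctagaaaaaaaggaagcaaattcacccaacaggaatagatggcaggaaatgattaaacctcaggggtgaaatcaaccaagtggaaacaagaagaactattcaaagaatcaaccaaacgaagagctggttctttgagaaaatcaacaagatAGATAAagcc
Both copies remained called without tamoxifen replicate 4. The Lx8 copy carried a pair of C/EBP words and the L1Md_F2 copy a GATA word.

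The 6 L1 peaks that fell were all on the oil list alone, and of the 35 that rose 19 were on the tamoxifen list alone and 16 on both. A peak on 1 list alone entered the table through the group of that list, so its list and its direction are not independent. An Lx8 copy 12268 bp past the end of Hspa1b, an inducible Hsp70 gene, fell furthest (chr17:34943943-34944168, 83.6% unique words). It held 40.8, 52.7 and 46.1 normalised tags after oil and 10.6, 6.69 and 14.4 after tamoxifen, so that it fell by 2.10 on the log2 scale (SE 0.40, adjusted p = 7.68e-05, DESeq2). An Lx5 copy 7265 bp past the end of Hspe1, a mitochondrial chaperonin gene (chr1:55098572-55099014), held 83.8, 72.6 and 89.6 after oil and 25.6, 20.1 and 52.6 after tamoxifen (log2 fold change -1.32 ± 0.30 SE, adjusted p = 0.00250, DESeq2). Tamoxifen replicate 4 was the nearest to oil at both. An L1_Mur2 copy 13904 bp past the end of Hsp90ab1, which encodes a cytosolic chaperone (chr17:45553244-45553871), held 89.9, 113 and 98.6 after oil and 70.6, 36.8 and 36.3 after tamoxifen (-1.07 ± 0.26 SE, adjusted p = 0.00572, DESeq2). Without tamoxifen replicate 4 it stood at -0.89, inside the fold limit.

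The remaining 3 that fell were not near chaperone genes. An L1M5 copy 3063 bp past the end of Rab3gap1, a regulator of Rab GTPases (chr1:127946931-127947348), held 61.2, 64.8 and 75.3 after oil and 35.3, 17.3 and 39.6 after tamoxifen (log2 fold change -1.12 ± 0.30 SE, adjusted p = 0.0186, DESeq2). An Lx9 copy 30985 bp from the start site of Golph3, a Golgi protein gene (chr15:12290379-12290643), held 64.5, 49.7 and 79.7 and then 26.1, 19.5 and 41.4 (-1.14 ± 0.31 SE, adjusted p = 0.0271, DESeq2). An Lx5 copy 58679 bp from the start site of the integrin gene Itgb1 (chr8:128744175-128744492) held 51.3, 60.5 and 60.0 and then 32.9, 26.2 and 25.1 (-1.02 ± 0.30 SE, adjusted p = 0.0465, DESeq2). In each the groups were apart, and the Itgb1 copy was not called without tamoxifen replicate 4.

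**Figure D3:**
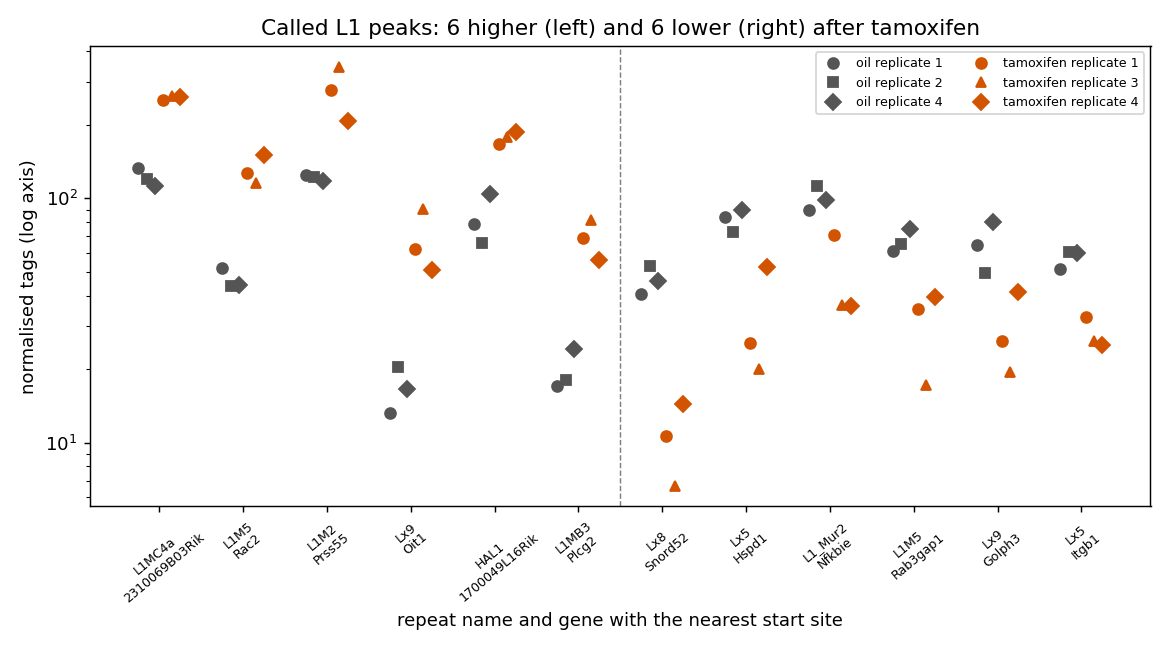
Normalised tags (log axis) in each of the 6 libraries for the 6 called L1 peaks with the smallest adjusted p that rose (left of the dashed line) and the 6 that fell (right), labelled by repeat name and the gene with the nearest start site. Oil (grey) and tamoxifen (orange) points do not overlap at any of the 12 peaks, by the rule that chose them, and tamoxifen replicate 4 (diamonds) is nearest to oil in several.

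Because 3 of the peaks that fell lay past chaperone genes, all L1 peaks within 20000 bp past the 3′ end of 10 genes of the heat shock response were listed. This list was made with the earlier results known, so it is a description. There were 9 such L1 peaks, past 7 of these genes, and each had a log2 fold change below 0, with a median of -1.04 against -0.00 over all peaks. The 3 called peaks that prompted the list are among them. Of the other 6, whose median log2 fold change was -0.70, 3 had all tamoxifen values below all oil values (10.0% of all peaks) and 0 were called. Without tamoxifen replicate 4, 2 of these 6 were called. Past the end of Hspd1, an Lx8 copy at 2707 bp held 65.1, 57.5 and 82.0 normalised tags after oil and 38.7, 17.8 and 50.3 after tamoxifen (log2 fold change -0.93, adjusted p = 0.128, DESeq2). Without tamoxifen replicate 4 it was called (-1.26, adjusted p = 0.0106, DESeq2), as was an Lx5 copy 7870 bp past Hspe1 (-1.99, adjusted p = 0.00820, DESeq2, against -1.36 and 0.118 with all libraries). A second Lx8 copy, 19547 bp past Hspd1 and in intron 1 of Coq10b, held 22.1, 20.5 and 25.1 after oil. It held 19.8, 21.2 and 21.4 after tamoxifen, and the groups overlapped. Neighbouring peaks past 1 gene share that gene's locus.

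To compare L1 families, tags were summed over the peaks of each repeat name and fitted with DESeq2, using all 580 repeat names of any class with at least 5 intron or intergenic peaks. Of these names 6.38% were called at an adjusted p under 0.05 with no fold limit, 5.17% as higher. Among the 85 L1 names tested, 9 rose (10.6%), none fell, and 76 did not pass, of which 9 more had an unadjusted p under 0.05. Counting those that passed, 18 of the 85 L1 names had such a p, against 90 of the 495 other names tested. The 9 names were L1VL4 of the rodent class and 8 older names: L1M4c, L1MB1, L1ME3A, L1MCa, L1MC4a, L1MD2, L1MB3 and L1MB8. They held 282 peaks, and in all 9 the tamoxifen sums lay above the oil sums, though a test on these sums had chosen them. Among all 85 L1 names tested, the groups were apart in either direction in 21.

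The older names rose by a small amount each. L1MB8, with 72 peaks of which 52 had a positive log2 fold change, summed to 4624, 4608 and 4627 normalised tags after oil and 5010, 5388 and 5234 after tamoxifen (0.17 ± 0.04 SE, adjusted p = 0.00130, DESeq2). No L1MB8 peak was called on its own. L1MB3, with 54 peaks, summed to 2754, 2691 and 2790 and then 3022, 3336 and 3016 (0.19 ± 0.05 SE, adjusted p = 0.0141, DESeq2). L1MD2, with 31 peaks, went from 1910, 1907 and 2013 to 2231, 2248 and 2239 (0.20 ± 0.05 SE, adjusted p = 0.00192, DESeq2). The spread over the 3 libraries of a group was smaller than the difference in these names.

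L1MC4a (32 peaks) rose by 0.22 ± 0.05 (SE; adjusted p = 0.00212, DESeq2), but without its 2 peaks that were called on their own the value was 0.09 (adjusted p = 0.431). L1MCa had 18 of 21 peaks above 0 and rose by 0.24 ± 0.06 (SE; adjusted p = 0.000848, DESeq2), from 1328, 1281 and 1316 to 1517, 1575 and 1558. L1ME3A (21 peaks), L1MB1 (18) and L1M4c (17) rose by 0.25 ± 0.08, 0.26 ± 0.07 and 0.28 ± 0.08 (SE). Without the highest peak of each name, L1MB1 stood at 0.20 (adjusted p = 0.122, DESeq2) and L1MD2 at 0.15 (adjusted p = 0.124, DESeq2), and L1MB3 stood at 0.15 (adjusted p = 0.0714, DESeq2) without its 2 called peaks. With any 1 of the oil libraries or tamoxifen replicate 3 left out, no more than 1 of the 8 older names passed, although all 8 values stayed above 0. The exception that passed was L1MD2 without oil replicate 4. All 8 passed without tamoxifen replicate 4.

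**Figure D4:**
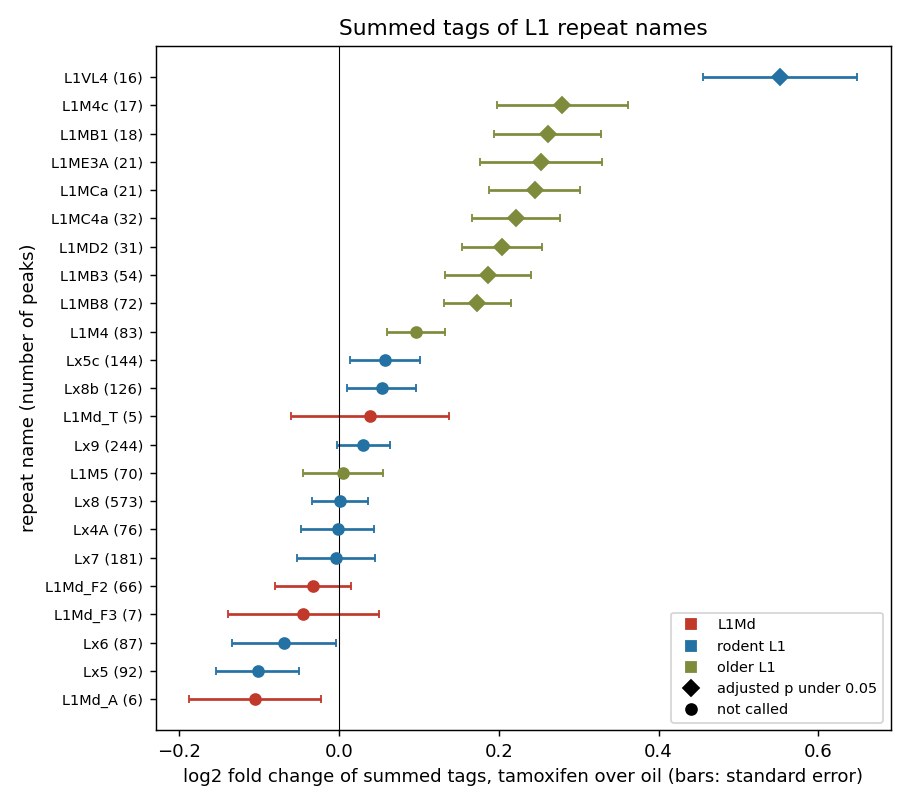
Log2 fold change of summed tags (tamoxifen over oil, bars are the standard error) for the 12 L1 names with the most peaks, the L1Md names with at least 5 peaks and the called names, with the number of peaks in brackets. The 9 called names (diamonds) lie from 0.17 to 0.55, and the L1Md names lie between -0.10 and 0.04.

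Of the 12 names with the most peaks, L1MB8 was the one that passed, and no L1Md name did. Lx8 (573 peaks) stood at 0.00 ± 0.04, Lx9 (244) at 0.03 ± 0.03, Lx7 (181) at -0.00 ± 0.05, Lx5c (144) at 0.06 ± 0.04 and Lx8b (126) at 0.05 ± 0.04 (SE). Lx5 (92 peaks) was at -0.10 ± 0.05, Lx6 (87) at -0.07 ± 0.06, Lx4A (76) at -0.00 ± 0.05, L1M4 (83) at 0.10 ± 0.04 and L1M5 (70) at 0.01 ± 0.05. Lx9 thus had 9 called peaks while its sum did not pass. Among young names, L1Md_F2 (66 peaks) summed to 2749, 2802 and 2910 after oil and 2736, 2841 and 2701 after tamoxifen, and the groups overlapped. L1Md_F2, L1Md_F3, L1Md_A and L1Md_T stood at -0.03 ± 0.05, -0.05 ± 0.09, -0.10 ± 0.08 and 0.04 ± 0.10 (SE), with 7 or fewer peaks in the last 3.

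Without tamoxifen replicate 4, 20 L1 names passed (12 higher and 8 lower, with 20.7% of all 580 names called), among them all 9. L1_Mus1, a young rodent name, was then at 0.22 ± 0.05 (adjusted p = 0.000397, DESeq2), against 0.15 with all libraries, and Lx2B, L1VL2, Lx6 and Lx5 at -0.32, -0.38, -0.15 and -0.14. These names were chosen after their values were seen. Directions within the rodent class therefore differed between names, and 16 of 30 rodent names, 35 of 51 older names and 1 of 4 L1Md names had a positive value with all libraries.

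L1VL4 had the largest change of any L1 name tested. Its 16 peaks summed to 706, 697 and 714 normalised tags after oil and 1098, 1120.3 and 886 after tamoxifen (log2 fold change 0.55 ± 0.10 SE, adjusted p = 1.51e-06, DESeq2). Oil libraries were nearly equal, and the lowest tamoxifen library, replicate 4, was still above them. It passed under each library left out (0.49 to 0.65), without its highest peak (0.50) and without its 2 peaks called on their own (0.47).

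Values above 0 were found in 14 of the 16 L1VL4 peaks by their own fits, the exceptions being copies near Retnlg and Adam30. The copy 4036 bp from the start site of Crlf2, a subunit of the thymic stromal lymphopoietin receptor, held 30.3, 30.7 and 34.0 after oil and 79.7, 95.3 and 56.8 after tamoxifen (1.26 ± 0.28 SE, adjusted p = 0.00166, DESeq2). The copy 43709 bp from Azi2, an adaptor gene of innate kinases, held 30.3, 26.3 and 25.1 and then 50.7, 72.4 and 58.7 (1.14 ± 0.30 SE, adjusted p = 0.0163, DESeq2). A copy near Olfr1499 held 50.7, 37.5 and 52.0 and then 89.4, 96.4 and 89.4, and passed the adjusted p at 0.97, inside the fold limit (0.97 ± 0.24 SE, adjusted p = 0.00647, DESeq2). These 3 copies lie on different chromosomes.

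Of the L1VL4 peaks 3 were neighbours, 7332 to 8494 bp past the start site of Jun, an AP-1 subunit. The highest, chr4:95044689-95045091, held 97.6, 93.1 and 90.5 after oil and 217, 179 and 106 after tamoxifen (0.83 ± 0.22 SE, adjusted p = 0.0152, DESeq2). With 1 peak per name within 10000 bp, L1VL4 stood at 0.50 (adjusted p = 2.00e-06). A GATA word was found in 56.2% of L1VL4 peaks, against 28.6% of L1 peaks and 21.4% of intron and intergenic peaks, and no L1VL4 peak held an AP-1 word. The GATA word was not particular to L1VL4. It was in 83.3% of the 12 peaks of L1VL2, whose sum stood at -0.17 ± 0.14 (SE; adjusted p = 0.509, DESeq2). HAL1 and Lx10 peaks held it in 56.7% and 53.7%. A copy with the GATA word and the called copy near Crlf2, in which none of the 9 words was found, are printed from the plus strand (chr19:13820869-13821118 and chr5:109562902-109563156).
L1VL4 near Olfr1499: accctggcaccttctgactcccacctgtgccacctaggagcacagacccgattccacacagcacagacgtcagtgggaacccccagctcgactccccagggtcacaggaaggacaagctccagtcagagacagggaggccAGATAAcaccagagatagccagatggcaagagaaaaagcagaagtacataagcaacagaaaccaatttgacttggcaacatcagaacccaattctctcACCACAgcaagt
L1VL4 near Crlf2: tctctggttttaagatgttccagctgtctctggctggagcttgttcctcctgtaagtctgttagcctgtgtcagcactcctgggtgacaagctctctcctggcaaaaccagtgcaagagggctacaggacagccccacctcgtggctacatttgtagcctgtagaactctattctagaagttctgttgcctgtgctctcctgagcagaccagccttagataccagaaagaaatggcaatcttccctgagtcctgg

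**Figure D5:**
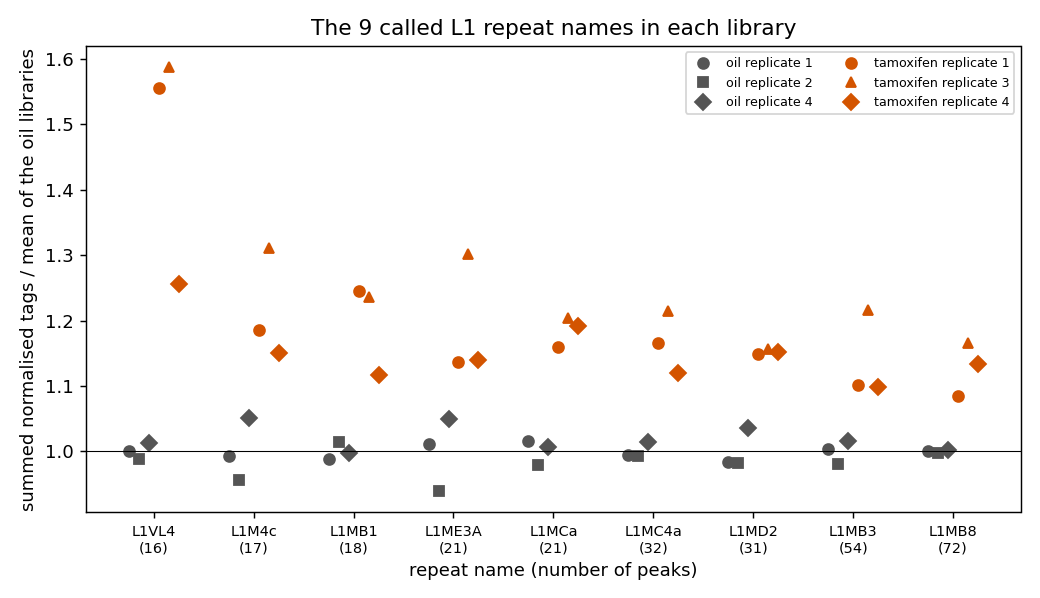
Summed normalised tags of the 9 called L1 names in each library, divided by the mean of the 3 oil libraries, with the number of peaks in brackets. All tamoxifen points lie above all oil points by name, in names that were chosen by a test on these sums. L1VL4 stands farthest from 1, with tamoxifen replicate 4 nearest to oil there.

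The share of accessible signal in L1 peaks did not separate the groups. Of the tags in all intron and intergenic peaks, L1 held 2.03%, 2.01% and 2.08% after oil and 2.02%, 2.05% and 2.10% after tamoxifen. The groups overlapped (exact two-sided permutation test, p = 0.60, adjusted p = 0.60 over 4 shares, the smallest possible p being 0.10). The older class held 0.870% ± 0.00797 in oil and 0.893% ± 0.0211 in tamoxifen libraries (SD, n = 3 per group; exact p = 0.30, adjusted 0.60), the rodent class 1.13% ± 0.0293 and 1.12% ± 0.0213 (exact p = 0.60, adjusted 0.60). The L1Md class held 0.0427% ± 0.000711 and 0.0411% ± 0.000862. There the 3 tamoxifen values were below the 3 oil values (exact two-sided permutation p = 0.10, adjusted 0.40). The difference turned when peaks with under 90% unique words were removed, but these are 76 of the 86 L1Md peaks, so little of the class was left.

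Set against other repeats within the same library, L1 tags were slightly higher relative to SINE tags after tamoxifen. The median log2 fold change was -0.07 over SINE peaks and 0.00 over L1 peaks, so by these medians SINE peaks were lower and L1 peaks level. The log2 ratio of L1 to SINE was -2.26, -2.30 and -2.25 after oil and -2.23, -2.20 and -2.17 after tamoxifen, a difference of 0.07, or 4.84%. The ratio of L1 to L2, a more ancient LINE, was 2.16, 2.16 and 2.17 after oil and 2.21, 2.24 and 2.17 after tamoxifen, a difference of 0.04. In both the groups were apart, each by the smallest p that 3 against 3 libraries can give (exact two-sided permutation p = 0.10, adjusted p = 0.25 over 5 ratios), so neither passed. For L2 the lowest tamoxifen value, replicate 4, exceeded the highest oil value by only 0.00044. Without that library the differences were 0.061 for L2 and 0.053 for SINE. The ratios of L1 to LTR elements (0.02), DNA transposons (-0.02) and peaks with no repeat (0.00) differed by less, and those groups overlapped. Within L1, the older to rodent ratio was -0.35, -0.36 and -0.41 after oil and -0.34, -0.31 and -0.32 after tamoxifen (exact p = 0.10, added after the data were seen).

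The genes that restrain L1 were examined at their own start sites. A list of 38 symbols in 4 roles had a peak within 3000 bp of the start site for 36, with 161 peaks. By DESeq2 0 of the 161 passed the adjusted p at any fold (1.39% of all peaks), and 4, or 2.48%, had an unadjusted p under 0.05 (9.02% of all peaks). By edgeR 0 were called. The median log2 fold change was -0.01. Of the genes of HUSH and H3K9 methylation, Cbx5, encoding heterochromatin protein HP1 alpha, had the highest peak, with 1074 ± 54.4 normalised tags in oil and 1063 ± 35.5 in tamoxifen libraries (SD, 3 libraries each). Daxx, a histone H3.3 chaperone gene, was the highest among genes of DNA methylation and remodelling, at 893 ± 35.7 and 896 ± 49.2. Hnrnpl, an RNA-binding protein gene, led the RNA genes at 1120 ± 58.7 and 1101 ± 81.4, and Ercc1, a nuclease subunit gene that limits L1 insertion, the DNA processing genes at 1053 ± 47.1 and 1047 ± 59.1. The difference was smaller than the spread between libraries in each. The 4 peaks with an unadjusted p under 0.05, chosen after their values were seen, lay at Uhrf1, a DNA methylation cofactor gene (log2 fold change -0.29), at Adar, an RNA editing gene (0.49 and 0.38), and at Apobec3, a cytidine deaminase gene (0.59). Their adjusted p-values by DESeq2 were 0.229, 0.213, 0.395 and 0.259. Without tamoxifen replicate 4 the Uhrf1 peak passed, at -0.40 (adjusted p = 0.0101, DESeq2), and no other control peak did.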

How the data were processed

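ATAC-seq of 6 libraries was mapped by the authors to mm10 with Bowtie2 at default settings, and peaks were called, merged into 1 table from an oil and a tamoxifen list, and counted with HOMER. How replicates entered the lists, and the treatment of reads that match several places, are not given in the sources used here. The deposited values are estimated counts, tags in steps of 0.5 with at most 3 per position and no scaling, and they were rounded here. The deposited peak score was carried over from the authors' lists and entered no test. The study left out peaks within 3000 bp of a start site before DESeq2. Here all peaks entered (DESeq2 1.42.0, Wald test, Benjamini-Hochberg), and the distal fit, edgeR 4.0.16, other size factors, GC correction, uniqueness and leaving out libraries were tried. In simulated data for the comparison of oil and tamoxifen, most changed peaks and names were recovered at an adjusted p under 0.05, with no fold limit. The changed peaks were drawn from those at or above the median level of all peaks (50.5 normalised tags). L1 peaks had a median of 38.9, so the recovery does not carry over to most of them. The members, gene lists and tests were chosen with earlier results of these data known, and 1 gene of the heat shock list is not reported here. Named peaks were the 6 smallest adjusted p in each direction among called peaks with groups apart, and the 2 highest per class. Named families were the 12 with most peaks, L1Md names with at least 5, and all called. Control genes named were the highest of each role and, added after the values were seen, those whose peaks had an unadjusted p under 0.05 by DESeq2. Coordinates are 1-based on GRCm38, whose chromosome lengths held every peak. Gene ends came from GENCODE M21 and host genes from RefSeq. Depth was 57.4 to 74.7 M tags (M, 1e6). Replicate numbers 1 and 4 occur in both groups, but deviations from the group means correlated at -0.04 and 0.05, so the numbers were not treated as pairs. Oil replicates 1 and 2 differed less than the other oil pairs (chi-square per degree of freedom of 1.03, against 1.19 and 1.22) and were kept as 2 libraries. Because tags come in steps of 0.5, the value that counting error alone would give is not known to be 1. The methods name mice as replicates, but the labels do not tie these libraries to separate animals. Were oil replicates 1 and 2 from 1 animal, the oil group would hold fewer than 3 samples, so that the SDs, SEs and p-values measure the spread between libraries.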

Additional observations from a re-analysis of the deposited data

How the results depend on the processing

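Other size factors, GC correction, the distal fit, uniqueness and a minimum mean tag number kept the 6 leading peaks that rose and the 6 that fell on their side of the threshold wherever they could be tested (94 of 94 values, edgeR included). Other named peaks were not run under these settings, apart from the counts. For the 9 called names, 96 values under such settings and under other choices of the peaks summed passed and 11 did not, all with the same direction. The 11 came from the choice of peaks. Of them 5 were over intergenic peaks alone and 2 over intron peaks alone. Another 2 were without the highest peak of each name, and 2 without peaks called on their own. The count of 41 L1 peaks became 71 with edgeR (56 higher and 15 lower) and 72 with no fold limit, and 5 names passed over intergenic peaks alone, 4 of them among the 9. Leaving out 1 library gave 10 to 103 L1 peaks and 1 to 20 names, the highest of both without tamoxifen replicate 4. For edgeR and for the fits without 1 library, shares of all peaks and names are given only without tamoxifen replicate 4. The causes were not tested.

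With a replicate block on the shared numbers 1 and 4, 0 L1 peaks and 0 names passed. That fit held only oil replicates 1 and 4 and tamoxifen replicates 1 and 4, so the block and the loss of libraries cannot be told apart. The numbers are not known to pair the samples. Over these libraries the share of L1 tags differed by 0.00176 percentage points, and the log2 ratios by 0.027 (L2), 0.053 (SINE), 0.0073 (LTR), -0.026 (DNA), -0.0067 (no repeat) and 0.047 (older to rodent).

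Differences that did not pass changed sign in places. Without 1 library the L1 share difference ran from -0.0087 to 0.033 (-0.0017 without oil replicate 2), the rodent share from -0.0201 to 0.0088 and the log2 ratio to no repeat from -0.018 to 0.016 (-0.0030 and -0.0107 without oil replicates 1 and 2). That ratio was -0.0023 over intergenic peaks. The rodent share was 0.0026 per total mapped tags, and the L1Md share 7.4e-05 over peaks with at least 90% unique words. L1 peaks had a median of 38.9 normalised tags, and a fold change that missed the threshold at that depth does not show that a peak was unchanged.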
